A study of Mus musculus with 6 samples.

Results

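Interferon signalling and interferon-stimulated genes were followed in 3T3 cells, fibroblasts of an immortalised line from mouse embryos, with or without overexpression of nicotinamide N-methyltransferase (NNMT). The 49 genes are interferon receptors, their kinases and transcription factors, and genes known to be induced by interferon. They were taken by symbol from the 35275 rows of the deposited table, low ones included. All 49 had a row. RNA was sequenced from 3 cultures that expressed a construct for NNMT, an enzyme that methylates nicotinamide with S-adenosylmethionine, and 3 that expressed a control construct. Both groups grew for 48 h in methionine-free DMEM brought to 10 µM methionine, with 10% dialyzed serum, and no interferon treatment is named for either. The labels do not say from which species the construct came, how it was delivered or whether the cells of a group were made separately. The p-values therefore cover no more than the spread among the cultures sequenced, and a difference between the starting populations cannot be told apart from one due to NNMT.

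Interferons are secreted antiviral cytokines. Type I interferons bind Ifnar1 and Ifnar2, and the kinases Jak1 and Tyk2 on that receptor phosphorylate STAT proteins. Interferon gamma binds Ifngr1 and Ifngr2, a receptor that Jak1 serves as well. Stat2 and Irf9 act in a complex that binds interferon-stimulated response elements before the starts of target genes, and interferon gamma acts on its targets through gamma-activated sites. Fibroblasts are a classical source of interferon beta, which they make when sensors such as RIG-I (Ddx58) detect viral RNA and activate Irf3.

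The letters of these elements were looked for in RefSeq promoters (GRCm38.p6, 250 bases before to 50 bases after the start), which were found for 39 of the 49 genes. GAAA, any 2 bases and GAAA was searched on both strands as the core of the response element, and overlapping matches were allowed. It was present in 19 of the 39 promoters (48.7%), against 1079 of the promoters of 27025 genes in RefSeq (3.99%). It was in 11 of 17 promoters of genes with a mean under 1 FPKM, in 4 of 10 promoters of genes that were higher in NNMT cells, in 2 of 5 of those that were lower and in 2 of 7 of those that did not pass. The palindrome of TTC, any 3 bases and GAA that marks gamma-activated sites was present in 13 of 39 promoters (33.3%), against 9.55% of all promoters, and in 7 of 10 promoters of higher genes, 0 of 5 of lower genes, 3 of 7 of genes that did not pass and 3 of 17 of genes under 1 FPKM. Without the 50 bases after the start it was in 5 of 10, 0 of 5, 2 of 7 and 3 of 17 of these. These shares are descriptions of letters in a window and not of bound sites, and in the Bst2 promoter a match of each kind shares bases with the other. The 160 bases before the RefSeq start are shown for 6 genes, 5′ to 3′ on the gene's own strand, with the matches to the response element core, or to its reverse complement, in capitals. Ifit1 and Ifit3 are shown because they lie in the same cluster and Ifit1 was lower while Ifit3 overlapped between the groups, Irgm1 and Igtp because they are relatives of which 1 fell, and Isg15 and Bst2 because both rose.
Ifit1, chr19:34640729-34640888, plus strand: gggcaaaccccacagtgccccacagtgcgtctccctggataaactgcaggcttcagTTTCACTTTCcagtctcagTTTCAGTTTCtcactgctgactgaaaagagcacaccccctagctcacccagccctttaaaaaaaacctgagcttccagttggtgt
Ifit3, chr19:34583369-34583528, plus strand: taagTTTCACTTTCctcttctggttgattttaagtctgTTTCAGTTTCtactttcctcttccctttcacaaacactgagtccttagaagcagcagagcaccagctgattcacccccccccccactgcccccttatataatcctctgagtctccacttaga
Irgm1, chr11:48871421-48871580, minus strand: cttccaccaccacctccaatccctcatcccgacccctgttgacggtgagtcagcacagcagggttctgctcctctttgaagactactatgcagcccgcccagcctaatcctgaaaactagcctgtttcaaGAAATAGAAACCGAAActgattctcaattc
Igtp, chr11:58199396-58199555, plus strand: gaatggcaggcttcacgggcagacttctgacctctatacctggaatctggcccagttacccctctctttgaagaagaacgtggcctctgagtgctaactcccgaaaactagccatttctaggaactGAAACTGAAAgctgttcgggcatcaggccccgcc
Isg15, chr4:156200819-156200978, minus strand: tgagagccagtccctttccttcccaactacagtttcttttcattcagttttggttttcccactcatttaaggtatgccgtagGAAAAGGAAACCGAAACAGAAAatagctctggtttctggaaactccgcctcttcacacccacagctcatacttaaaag
Bst2, chr8:71537473-71537632, minus strand: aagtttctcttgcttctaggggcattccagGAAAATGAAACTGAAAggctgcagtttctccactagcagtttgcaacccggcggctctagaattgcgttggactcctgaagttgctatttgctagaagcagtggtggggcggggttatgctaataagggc
The promoters of Ifit1 and Ifit3 hold the same pair of matches in the same order, TTTCACTTTC and TTTCAGTTTC. The Irgm1 stretch lies inside the GENCODE span of the gene. In Isg15 a run of 3 overlapping matches begins at positions -78, -72 and -66 relative to the start.

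The labels were checked on Nnmt, which stood at 15.7, 15.0 and 18.3 FPKM in the unnumbered NNMT library and NNMT libraries 2 and 3, against 7.6, 5.25 and 6.51 FPKM in control libraries 1, 2 and 3 (limma adjusted p = 4.75e-06). Library values below are in these orders. As the species of the construct is not given, whether reads on mouse Nnmt came from the construct or from the cells' own gene cannot be told. Values are taken as FPKM, a unit inferred from the table, and the whole reads behind them summed to 35282861 to 39979823 per NNMT library and 31620168 to 38876137 per control library. Fibroblast markers were abundant in both groups, with summed levels of 10300 to 11700 FPKM in NNMT libraries and 8150 to 8420 FPKM in control libraries, and 5 of the 10 were higher and 4 lower. Among 12 immune cell markers, Cd3e, Siglech and Flt3 were at 0 in all libraries, and the sum of all 12 was 1.21 to 2.11 FPKM in NNMT cells and 2.49 to 2.88 FPKM in control cells. In bulk RNA, fewer cells of a type and less RNA per cell cannot be told apart. Endothelial and epithelial markers summed to 0.0848 to 0.108 FPKM in NNMT cells and 0.163 to 0.298 FPKM in control cells.

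The interferon genes moved in both directions. Of 24 whose level over the 6 libraries averaged 1 FPKM or more, 11 were higher and 5 lower in NNMT cells at a limma adjusted p under 0.05 over all genes, and 8 did not pass. Among all 10882 genes tested, 65.6% were called (35% higher and 30.6% lower), so that a share of 66.7% called among the interferon genes stood near the background. Their median log2 fold change was 0.15, against 0.03 for all tested genes, and their median absolute change was 0.28 against 0.24. Fold changes on this scale, log2(FPKM + 1), understate the changes of low genes. The groups did not overlap for 18 of the 24, against 69.9% of all tested genes. A change of at least 0.5 in either direction was seen in 7 of the 24 and in 19% of all tested genes. The other 25 genes had a mean under 1 FPKM, and 2 of them, Oas1g and Oas2, were listed at 0 in all 6 libraries. Summed over the 37 genes that are not receptors, kinases or transcription factors, the level was 160, 147 and 161 FPKM in NNMT cells and 125, 115 and 117 FPKM in control cells. Ifi27 was the largest part of that sum, which is a description with no test.

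**Figure D1:**
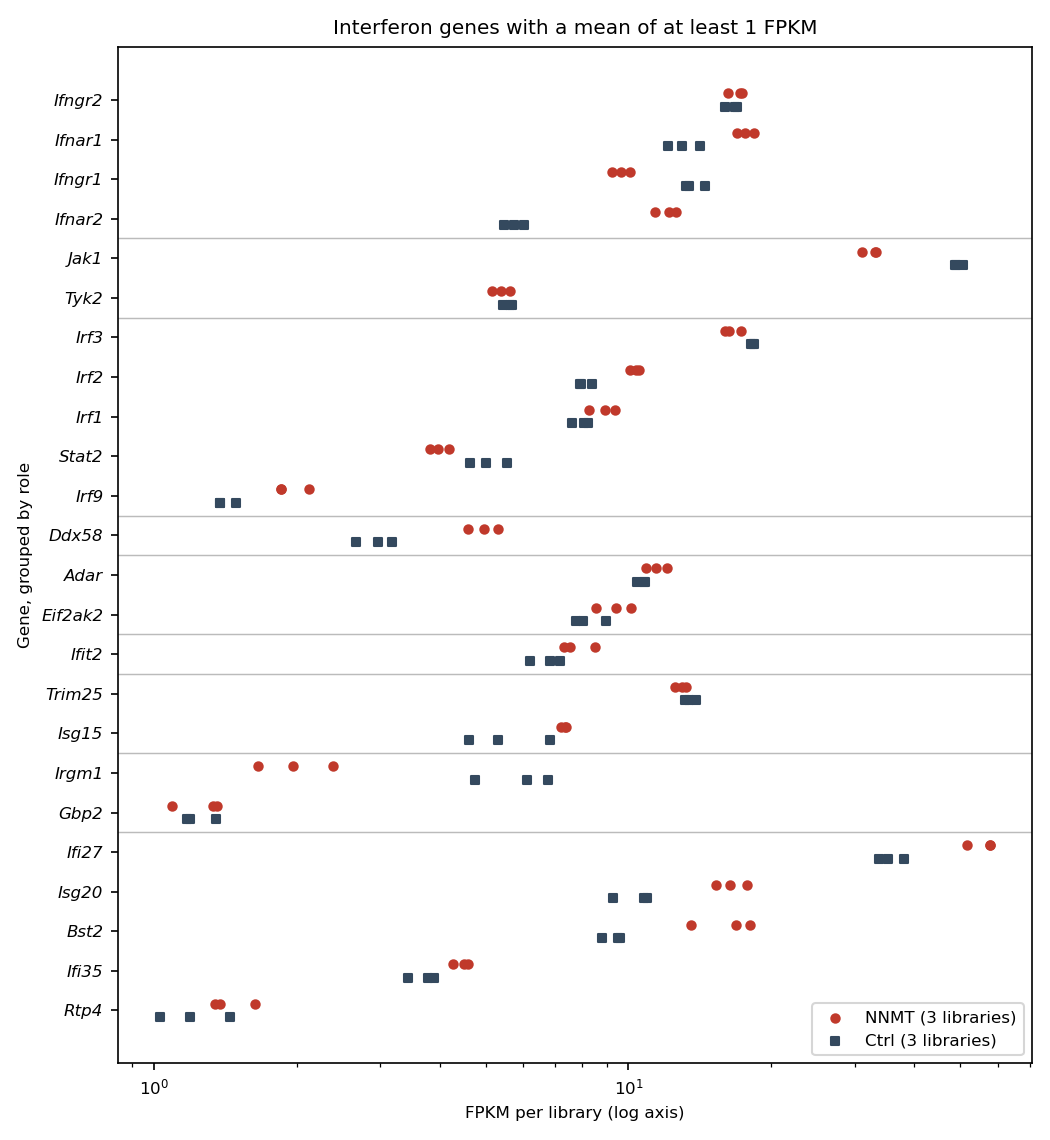
FPKM (log axis) of the 24 tested interferon genes in each of 3 NNMT libraries (circles) and 3 Ctrl libraries (squares), grouped by role with receptors at the top. Irgm1 lay between 1.66 and 2.39 FPKM in NNMT libraries and between 4.76 and 6.76 FPKM in Ctrl libraries, while Gbp2 and Ifngr2 overlapped between the groups.

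Transcripts of the interferons themselves were at or near 0. All 21 ligand genes looked for, from Ifnb1 to the alpha, gamma and lambda genes, had a mean under 1 FPKM, and 14 were at 0 in all libraries. The most reads fell on Ifnz, a zeta interferon gene of mice, with 7 reads in the NNMT libraries and 4 in the control libraries, and on Ifne, the epsilon interferon, with 4 in each group. Ifnb1, the beta interferon of fibroblasts, had 0 reads in the NNMT libraries and 1 in the control libraries. A difference in ligand transcripts was thus not detectable at this depth.

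The receptor chains did not move together. Both chains of the type I receptor were higher, the ligand-binding chain of the interferon gamma receptor (Ifngr1) was lower, and its partner Ifngr2 did not pass. Ifnar2 (ENSMUSG00000022971), the chain that binds type I interferon most tightly, stood at 12.6, 11.3 and 12.2 FPKM in NNMT cells, against 6.04, 5.74 and 5.47 FPKM in control cells. The groups lay far apart, and the change was the largest rise among the 24 tested genes on the log2(FPKM + 1) scale (2.09-fold, log2 fold change 0.95, SE 0.0582, limma adjusted p = 3.99e-07). Ifnar1 stood at 17.6, 16.9 and 18.4 FPKM in NNMT cells, against 14.1, 12.1 and 13.0 FPKM in control cells, with no overlap (log2 fold change 0.40, SE 0.0609, limma adjusted p = 2.02e-04). Ifngr1, on chromosome 10, stood at 9.24, 10.1 and 9.64 FPKM in NNMT cells, against 14.5, 13.2 and 13.4 FPKM in control cells. Every NNMT library was below every control library (log2 fold change -0.47, SE 0.0551, limma adjusted p = 3.83e-05). Ifngr2 averaged 16.9 ± 0.638 FPKM in NNMT cells and 16.5 ± 0.473 FPKM in control cells (SD, n = 3 each), and the groups overlapped.

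Ifnar2, Ifnar1 and Ifngr2 lie within 193 kb of each other, at chr16:91372783-91565623 (GENCODE M21 on GRCm38), together with Il10rb, the chain shared by the interleukin-10 and interferon lambda receptors. Il10rb averaged 2.95 ± 0.126 FPKM in NNMT cells and 1.90 ± 0.0711 FPKM in control cells (log2 fold change 0.44, limma adjusted p = 1.46e-04). Chromosome 16 as a whole was shifted, with 222 of 347 tested genes higher (median log2 fold change 0.29). Other chromosomes were shifted too. On chromosome X 305 of 338 tested genes were lower (median -0.70), on chromosome Y all 7 were higher (median 2.84), and on chromosome 4 there were 390 of 688 lower (median -0.23). Within 5 Mb of the receptors, 43 of 49 tested genes were higher and 2 lower, and the median log2 fold change of the 46 outside the list, Il10rb among them, was 0.47. With that median subtracted as a fixed value, Ifnar2 was still higher (difference 0.48, limma adjusted p = 6.2e-05) and Ifngr2 was lower (difference -0.44, adjusted p = 3.94e-05). The difference of Ifnar1 was -0.06 (limma adjusted p = 0.4), which ended its call, where its adjusted p over all alternatives ran from 3.83e-12 to 0.4. Only 4 tested genes of the window had a larger log2 fold change than Ifnar2, and 3 had a smaller one than Ifngr2. The part of the shared shift in the receptors' own values was not tested.

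**Figure D2:**
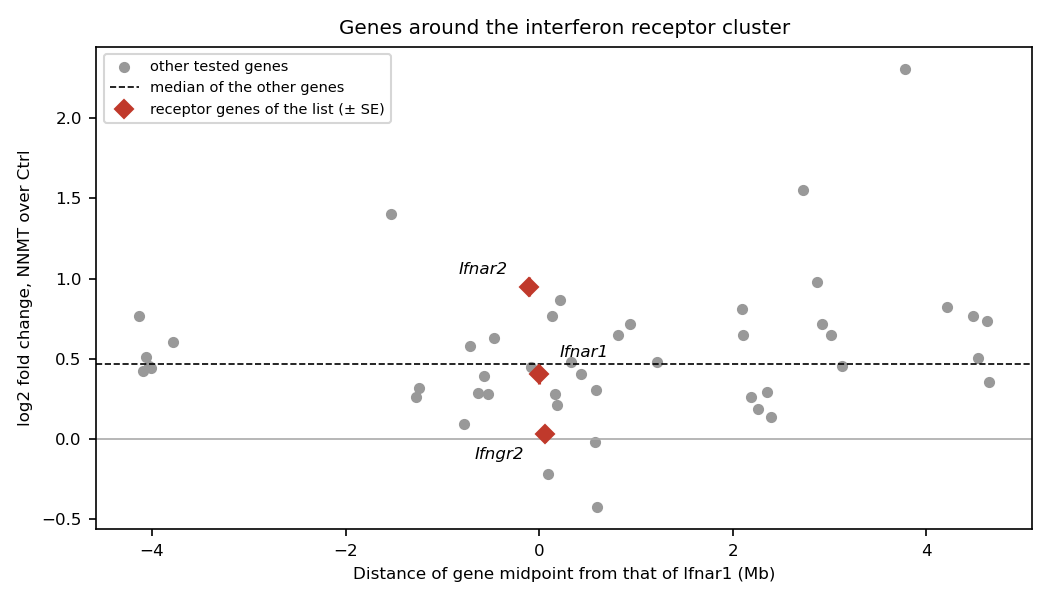
Log2 fold change (NNMT over Ctrl) of tested genes within 5 Mb of the receptor cluster on chromosome 16 against the distance of their midpoints from that of Ifnar1. Diamonds are the 3 receptor genes of the list with SE, grey points the other 46 genes, Il10rb included, and the dashed line their median of 0.47; Ifnar2 lies above it at 0.95, Ifnar1 near it at 0.40 and Ifngr2 below it at 0.03.

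Of the 2 receptor kinases of the list, Jak1 was lower and Tyk2 did not pass. Jak1, which serves both receptor types, had the highest level of the receptor, kinase and transcription factor genes of the list and stood at 33.2, 31.1 and 33.0 FPKM in NNMT cells, against 50.6, 48.7 and 48.8 FPKM in control cells. The libraries of a group lay close together, and the fall was far outside their spread (log2 fold change -0.59, SE 0.0464, limma adjusted p = 2.11e-06). The median of the 21 tested genes within 5 Mb of Jak1 on chromosome 4 was -0.33, and the fall relative to them was -0.26 (limma adjusted p = 7.71e-04). Tyk2 averaged 5.39 ± 0.235 FPKM in NNMT cells and 5.59 ± 0.133 FPKM in control cells, with overlapping groups (limma adjusted p = 0.502). Relative to the 63 tested genes around it, with a median of 0.16, Tyk2 was called lower (difference -0.21, limma adjusted p = 0.009, with a range over alternatives of 0.009 to 0.808).

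Among the transcription factors, the partners Stat2 and Irf9 moved in opposite directions. Stat2 stood at 3.98, 3.81 and 4.18 FPKM in NNMT cells, against 5.55, 5.02 and 4.63 FPKM in control cells, and the groups did not overlap (log2 fold change -0.28, limma adjusted p = 0.00488). Irf9 stood at 1.85, 1.85 and 2.13 FPKM in NNMT cells, against 1.38, 1.49 and 1.38 FPKM in control cells, again without overlap (log2 fold change 0.28, limma adjusted p = 0.00527). Its span overlaps Rnf31 on the same strand, itself higher (log2 fold change 0.21), so its level is less certain. Relative to genes within 5 Mb the fall of Stat2 was no longer called (adjusted p = 0.0596, with a range over alternatives of 3.63e-04 to 0.0596).

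Irf2, which competes with the activator Irf1 for the same DNA sites, was higher, at 10.5, 10.1 and 10.4 FPKM in NNMT cells against 7.91, 8.37 and 7.95 FPKM in control cells. The change (log2 fold change 0.32, limma adjusted p = 2.65e-04) was close to the median of 0.29 of the 19 genes around it on chromosome 8, and relative to these it did not pass (adjusted p = 0.589, with a range over alternatives of 1.05e-04 to 0.589). Irf1 averaged 8.86 ± 0.559 FPKM in NNMT cells and 7.95 ± 0.316 FPKM in control cells and did not pass (limma adjusted p = 0.06). It passed in 3 of 19 alternatives, with an adjusted p from 0.00994 to 0.292. Irf3, the factor that drives interferon beta once sensors are engaged, stood at 16, 17.3 and 16.2 FPKM in NNMT cells, against 18.4, 18.3 and 18.1 FPKM in control cells (log2 fold change -0.14, limma adjusted p = 0.0247). That call was lost when any 1 library other than NNMT library 2 was left out, and its adjusted p ran from 0.00546 to 0.713 over all alternatives. Irf7, which amplifies type I interferon, had 7, 5 and 3 reads in NNMT libraries and 17, 8 and 7 in control libraries, so the highest NNMT library and the lowest control library had the same number of reads (limma-voom adjusted p = 0.0884). It overlaps Phrf1 on the other strand at 21 FPKM, so that these few reads cannot be assigned to it with confidence.

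**Figure D3:**
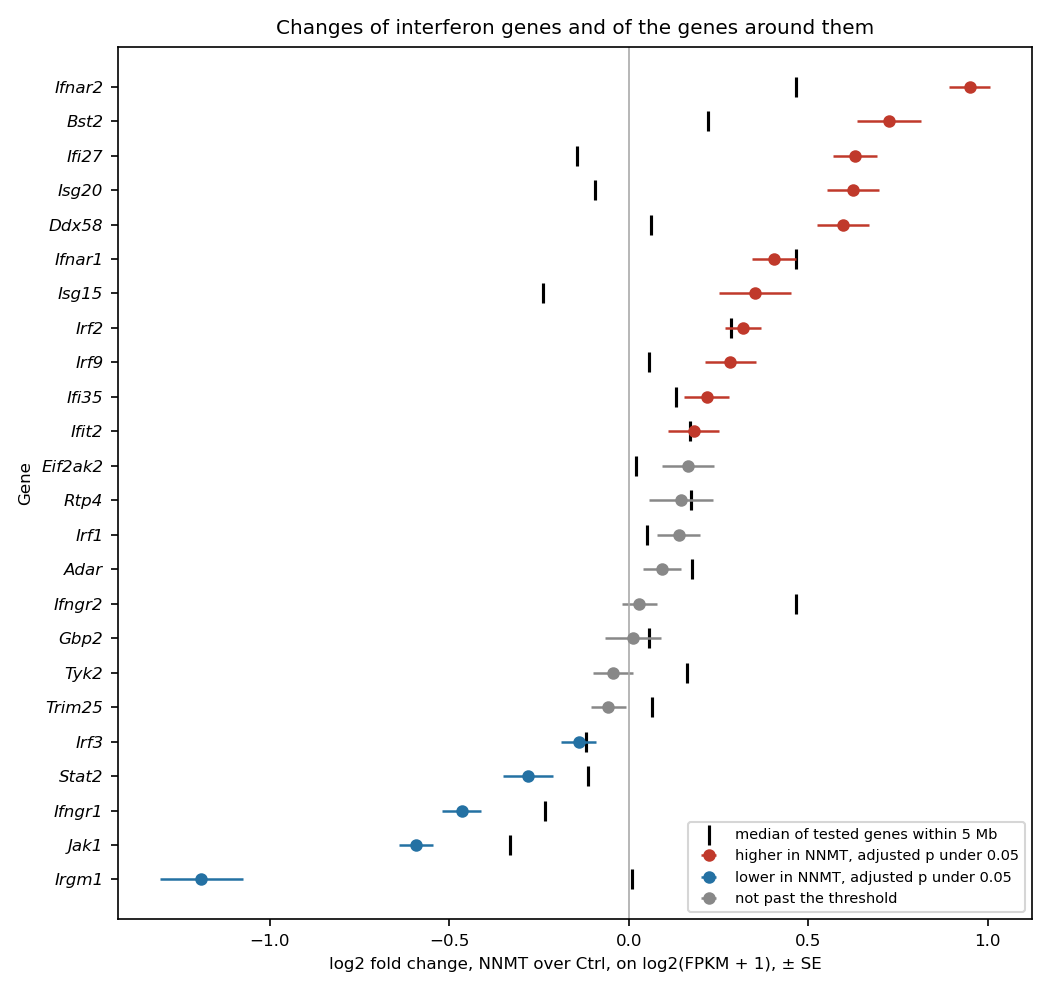
Log2 fold change (NNMT over Ctrl, ± SE, on log2(FPKM + 1)) of the 24 tested interferon genes, with the median of the tested genes within 5 Mb of each as a vertical tick. Red genes were higher and blue genes lower at an adjusted p under 0.05; Ifi27 and Isg15 rose where their neighbours had medians of -0.15 and -0.24, while the ticks of Irf2, Irf3 and Ifit2 lie close to their own values.

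Of the sensors of viral RNA, Ddx58 and Dhx58 were higher, while Ifih1 overlapped between the groups and Zbp1 had too few reads for a test. Ddx58 (RIG-I), which detects uncapped RNA ends, stood at 4.96, 4.60 and 5.30 FPKM in NNMT cells, against 3.18, 2.67 and 2.97 FPKM in control cells. The groups did not overlap (1.69-fold, log2 fold change 0.60, limma adjusted p = 4.33e-05). Dhx58 (LGP2), its regulator, stood at 0.922, 0.927 and 0.947 FPKM in NNMT cells, against 0.426, 0.469 and 0.471 FPKM in control cells, a 2.05-fold difference without overlap. Being under the mean of 1 FPKM, it was not in the main test and was called higher in limma-voom on recovered reads (adjusted p = 5.78e-04). Ifih1 (MDA5), the sensor of long double-stranded RNA, averaged 0.0436 FPKM in NNMT cells and 0.0421 FPKM in control cells, with 27 reads in NNMT libraries, 24 in control libraries and overlapping groups. Zbp1, a sensor of Z-form nucleic acids, had 2 reads in the NNMT libraries and 3 in the control libraries.

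Low genes were read from reads rather than from the main test. Of the 25 genes under 1 FPKM, 17 had at least 10 reads over all libraries, and in limma-voom 5 of these were higher and 3 lower at an adjusted p under 0.05. Among all 4949 genes that were as low and had as many reads, 18.3% were called higher and 11.5% lower. Over all genes with at least 10 reads, 26.2% were called higher and 27.8% lower by limma-voom, against 14 and 8 of the 41 interferon genes that had them. For 10 of the 17 the groups did not overlap, against 39.3% of these low genes. Mx2, Oasl2 and Rsad2 reached 10 reads only through the group in which they were higher, so their calls rest on that group's reads. The 7 that overlapped were Ifit3, Ifit3b, Ifih1, Ifi44, Gbp3, Igtp and Cmpk2. A further 6 genes had fewer than 10 reads in all (Oas1a, Oas3, Oasl1, Mx1, Zbp1 and Iigp1).

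The Ifit genes, whose proteins bind the ends of viral RNA, were split. They lie within 99 kb at chr19:34550694-34650009. Ifit1 (ENSMUSG00000034459) had 7, 1 and 7 reads in the NNMT libraries, against 173, 122 and 124 in the control libraries. In FPKM this was 0.0658, 0.0107 and 0.0725 in NNMT cells, against 1.91, 1.18 and 1.47 in control cells, 30.7-fold lower and the largest fall by ratio among genes of the list with at least 10 reads in each group (22.0-fold to 39.8-fold with any 1 library left out; limma-voom adjusted p = 2.36e-06). Ifit2, of the same cluster, moved the other way and stood at 7.52, 7.30 and 8.51 FPKM in NNMT cells, against 6.82, 6.21 and 7.19 FPKM in control cells (log2 fold change 0.18, limma adjusted p = 0.0430). That small rise lost its call without control library 1, control library 2 or NNMT library 3, and its adjusted p ran from 0.0109 to 0.915 over all alternatives. Ifit3, whose promoter shares both matches with that of Ifit1, had 24, 22 and 29 reads in NNMT libraries and 23, 20 and 23 in control libraries. Its transcript shares 51.2% of its 50-base stretches with Ifit3b, so the reads of these copies may be split between them. Ifit3b had 15 reads in NNMT libraries and 14 in control libraries.

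The enzymes that act on double-stranded RNA did not pass where they were well expressed, and the others were near the floor. Adar, which edits adenosines, averaged 11.5 ± 0.576 FPKM in NNMT cells and 10.7 ± 0.207 FPKM in control cells, and Eif2ak2 (PKR), which halts translation, averaged 9.36 ± 0.797 and 8.24 ± 0.652 FPKM in NNMT and control cells. Neither passed (limma adjusted p = 0.144 and 0.0664). Eif2ak2 passed in 4 of 19 alternatives, with an adjusted p from 0.00594 to 0.239, and Adar in 0 of 19. Of the oligoadenylate synthetases and their relatives, which activate RNase L or have lost that activity, only Oas1b and Oasl2 had at least 10 reads. Oas1b, the gene that sets flavivirus resistance in mice, is annotated as a polymorphic pseudogene. It stood at 0.258, 0.231 and 0.165 FPKM in NNMT cells, against 0.128, 0.0839 and 0.0344 FPKM in control cells (2.66-fold, 45 reads in NNMT libraries and 16 in control libraries, limma-voom adjusted p = 0.0289). Oasl2 had 1, 0 and 0 reads in NNMT libraries, against 14, 10 and 9 in control libraries. The control level was 35.2 times the NNMT level (95% counting interval 5.9 to 1430; limma-voom adjusted p = 1.37e-04). Its neighbour Oasl1 had 0 reads in NNMT libraries and 5, 1 and 2 in control libraries. Reads on Oas1a and Oas1g cannot be told apart well, since 57.6% and 54.7% of their 50-base stretches are shared, and they had 2 and 0 reads in all.

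In the ISG15 system, Isg15 and Usp18 were higher and Trim25 did not pass. Isg15, a ubiquitin-like protein that is joined to other proteins, stood at 7.40, 7.22 and 7.35 FPKM in NNMT cells, against 6.84, 4.62 and 5.30 FPKM in control cells (log2 fold change 0.35, SE 0.102, limma adjusted p = 0.0111). The groups did not overlap, but control library 1 came close to the NNMT libraries. The median of the 53 tested genes around Isg15 on chromosome 4 was -0.24, and relative to these its rise was 0.59. Usp18, which removes ISG15 and dampens signalling at Ifnar2, stood at 0.691, 0.783 and 0.995 FPKM in NNMT cells, against 0.282, 0.276 and 0.268 FPKM in control cells. This was a 2.99-fold difference without overlap (limma-voom adjusted p = 3.65e-04). Trim25, a ubiquitin and ISG15 ligase that acts on RIG-I, averaged 12.9 ± 0.363 FPKM in NNMT cells and 13.5 ± 0.370 FPKM in control cells and did not pass (limma adjusted p = 0.317). Relative to genes within 5 Mb it was called lower (difference -0.12, limma adjusted p = 0.049, with a range over alternatives of 0.049 to 0.601).

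The interferon-inducible GTPases held the largest fall among the tested genes of the list. Irgm1 (ENSMUSG00000046879, chr11:48861968-48871683, minus strand), which protects mouse cells against intracellular microbes, stood at 1.66, 2.39 and 1.97 FPKM in NNMT cells, against 4.76, 6.76 and 6.12 FPKM in control cells. All NNMT libraries were below all control libraries (2.93-fold lower, log2 fold change -1.19, SE 0.116, limma adjusted p = 9.65e-06), and 108 of the 10882 tested genes fell further. None of its 50-base stretches occurs in another gene's transcripts, and the 55 tested genes around it had a median log2 fold change of 0.01. That median leaves out genes averaging under 1 FPKM. Among such genes close by, Tgtp1, Tgtp2 and Ifi47 of the wider list of stimulated genes were lower too. They had 4, 20 and 63 reads in NNMT libraries and 39, 92 and 108 in control libraries. Their groups did not overlap (limma-voom adjusted p = 0.00127, 8.67e-05 and 0.0142). Reads shared between them were not looked for. Igtp, a relative of Irgm1 also on chromosome 11, had 59 reads in NNMT libraries and 44 in control libraries with overlapping groups. Of its stretches 12.3% are shared with Irgm2, which it overlaps. Irgm2 had 114 and 74 reads, with overlapping groups. Iigp1 had 1 read in NNMT libraries and 3 in control libraries.

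The Mx and Gbp proteins are larger GTPases that act on viral particles and on vacuoles of microbes. Mx2, annotated as a polymorphic pseudogene, had 8, 6 and 8 reads in NNMT libraries and 0 in every control library. It was at least 6.87-fold higher when the control group was set to a floor of 3 counts over the group (limma-voom adjusted p = 2.15e-04). Of the 21 tested genes within 5 Mb of Mx2 on chromosome 16, 20 were higher and 0 lower (median log2 fold change 0.50). The neighbouring Mx1 had 2, 1 and 1 reads in NNMT libraries and 0 in control libraries, too few for a test. On chromosome 3, Gbp2 averaged 1.26 ± 0.146 FPKM in NNMT cells and 1.24 ± 0.0993 FPKM in control cells and did not pass (limma adjusted p = 0.909). Gbp7 had 38, 19 and 22 reads in NNMT libraries and 14, 15 and 13 in control libraries, without overlap, but did not pass in limma-voom (adjusted p = 0.108). Gbp3 overlapped between the groups, with 21 reads in NNMT libraries and 15 in control libraries.

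Among the remaining stimulated genes, 4 of 5 with a mean of at least 1 FPKM were higher, as were 35% of all tested genes, and none of the 5 was lower. Bst2 (tetherin), which holds budding virions at the cell surface, stood at 16.9, 13.5 and 18 FPKM in NNMT cells, against 9.61, 8.81 and 9.51 FPKM in control cells (1.73-fold, log2 fold change 0.73, limma adjusted p = 5.09e-05). Ifi27, a small membrane protein, was the most abundant stimulated gene of the list, at 57.9, 51.7 and 57.7 FPKM in NNMT cells, against 38.1, 33.8 and 35.2 FPKM in control cells (log2 fold change 0.63, limma adjusted p = 9.09e-06). The exonuclease Isg20 stood at 17.7, 16.4 and 15.3 FPKM in NNMT cells, against 10.9, 10.8 and 9.30 FPKM in control cells (log2 fold change 0.62, limma adjusted p = 3.12e-05). In each of these genes the lowest NNMT library lay well above the highest control library, and each stayed past the threshold under all alternatives tried. Ifi35 rose less, at 4.51, 4.59 and 4.26 FPKM in NNMT cells against 3.77, 3.88 and 3.43 FPKM in control cells (log2 fold change 0.22, limma adjusted p = 0.0116). Its call was lost without control library 3, in limma-voom and relative to genes within 5 Mb, and its adjusted p ran from 0.0074 to 0.275 over all alternatives. Rtp4 averaged 1.46 ± 0.158 FPKM in NNMT cells and 1.22 ± 0.210 FPKM in control cells and overlapped between the groups. It spans part of Masp1 on the other strand, which was higher (log2 fold change 1.54).

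Xaf1, which binds and opposes the inhibitor of apoptosis XIAP, had the smallest adjusted p among the rises of low genes. It stood at 1.12, 1.21 and 1.39 FPKM in NNMT cells, against 0.385, 0.376 and 0.401 FPKM in control cells, 3.20-fold and without overlap (limma-voom adjusted p = 4.73e-06). Rsad2 (viperin), an antiviral enzyme, had 1, 0 and 0 reads in NNMT libraries, against 4, 3 and 3 in control libraries. The control level was 10.7 times the NNMT level, with a counting interval of 1.52 to 463 (limma-voom adjusted p = 0.0107). Its neighbour Cmpk2, a nucleotide kinase, had 4 reads in NNMT libraries and 11 in control libraries, of which 9 came from control library 2, and the groups overlapped. Ifi44 had 68 reads in NNMT libraries and 56 in control libraries and overlapped too.

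**Figure D4:**
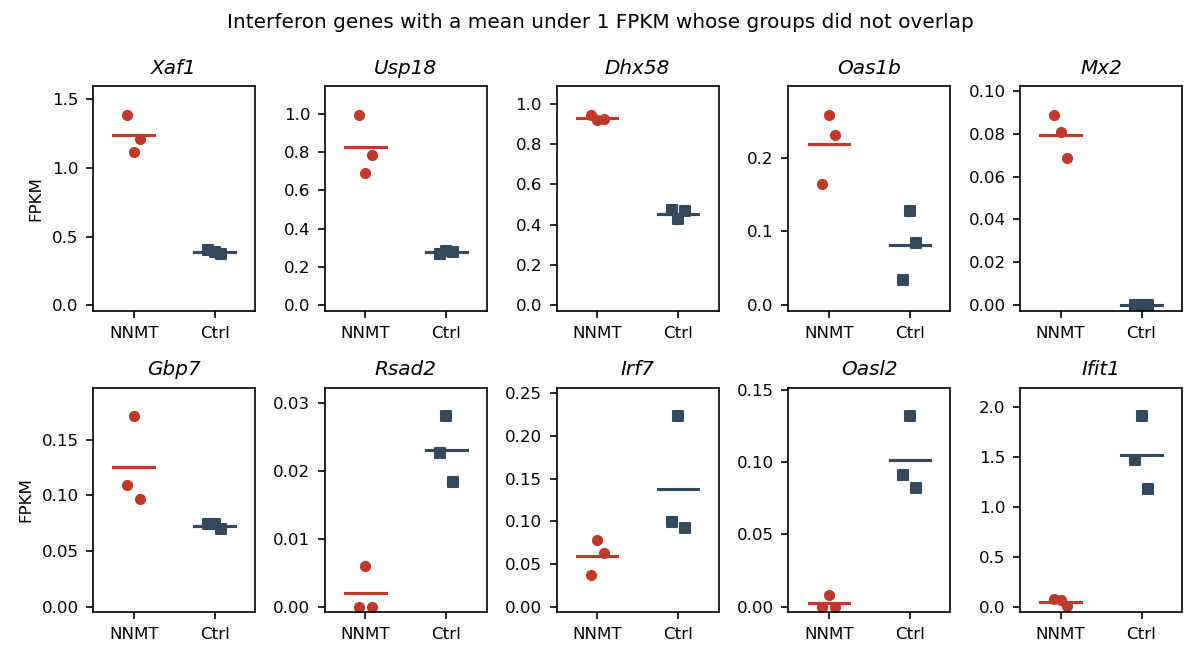
FPKM of the 10 interferon genes with a mean under 1 FPKM, at least 10 reads and no overlap between 3 NNMT libraries (left) and 3 Ctrl libraries (right); bars are means and each panel has its own axis starting near 0. Ifit1 had means of 0.0497 in NNMT and 1.52 in Ctrl, and Xaf1 1.24 in NNMT and 0.387 in Ctrl.

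The wider pathway also moved in both directions. Of 16 tested receptor and JAK-STAT genes outside the list, 6 were higher and 3 lower (median log2 fold change 0.07), and 56.2% were called against the background of 65.6%. Besides Il10rb these included Ptpn1, a phosphatase that acts on Tyk2 (22.4 ± 0.731 FPKM in NNMT cells, 17.8 ± 0.340 FPKM in control cells), and Stat3 (34.6 ± 3.51 and 27.1 ± 1.91 FPKM in NNMT and control cells), both higher. The feedback inhibitors Socs1 (6.54 ± 0.121 FPKM in NNMT cells, 8.38 ± 0.575 FPKM in control cells) and Socs3 (14.7 ± 0.959 and 18.1 ± 1.44 FPKM in NNMT and control cells) were lower, as was the corepressor Irf2bp2 (18.9 ± 1.53 FPKM in NNMT cells, 25.3 ± 1.75 FPKM in control cells). Quantile normalization and medians of ratios scaling each called 5 of these 16 genes lower. Medians of ratios scaling also called more of all genes lower than the main test did.

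In the pathways that sense nucleic acids and induce interferon, 5 of 20 tested genes were higher and 8 lower, with a median of -0.03, and 65% were called. The largest fall was that of Tmem173 (STING), the adaptor for cytosolic DNA, at 1.83, 2.16 and 2.18 FPKM in NNMT cells against 6.99, 6.42 and 6.68 FPKM in control cells (3.25-fold lower, log2 fold change -1.33, limma adjusted p = 1.14e-07). Mavs, the adaptor for RIG-I, averaged 9.40 ± 0.0909 FPKM in NNMT cells and 11.5 ± 0.280 FPKM in control cells. The kinase Tbk1, which phosphorylates Irf3, averaged 12.7 ± 0.660 FPKM in NNMT cells and 16 ± 0.966 FPKM in control cells. Traf3, which links these adaptors to Tbk1, averaged 6.41 ± 0.537 FPKM in NNMT cells and 9.97 ± 0.244 FPKM in control cells, and all 3 were called lower. Tbkbp1, which binds Tbk1, rose instead, at 2.54, 2.07 and 2.52 FPKM in NNMT cells against 0.387, 0.339 and 0.378 FPKM in control cells (6.46-fold, limma adjusted p = 4.10e-07). It reached the mean of 1 FPKM needed for the test only through the NNMT libraries. Zc3hav1 (ZAP), which binds viral RNA, was higher too, with 31.2 ± 1.01 FPKM in NNMT cells and 24.9 ± 0.5 FPKM in control cells. RIG-I was higher in the same libraries in which its adaptor was lower.

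Of 34 further stimulated genes that were tested, 20 were higher and 10 lower (median log2 fold change 0.21), so that 88.2% were called, against 65.6% of all tested genes (35% higher and 30.6% lower). These genes, too, were chosen with earlier results of the data known. Gbp9, a guanylate-binding protein gene, stood at 2.21, 2.25 and 2.98 FPKM in NNMT cells, against 0.0566, 0.0495 and 0.0174 FPKM in control cells, 60.3-fold higher with 1005 reads in NNMT libraries and 16 in control libraries (log2 fold change 1.74, limma adjusted p = 1.75e-07). Trim30a, an antiviral tripartite motif protein of mice, stood at 2.03, 2.14 and 2.51 FPKM in NNMT cells, against 0.171, 0.0885 and 0.226 FPKM in control cells (13.8-fold, limma adjusted p = 2.81e-07). Gbp9 and Trim30a reached the mean of 1 FPKM needed for the test only through the NNMT libraries. Both genes lie among close relatives, and the span of Gbp9 overlaps those of Gbp4 and Gbp8, so that reads may be split between copies. The lysosomal thiol reductase Ifi30 (38.3 ± 1.85 FPKM in NNMT cells, 20.9 ± 0.493 FPKM in control cells) and the galectin Lgals9 (18.2 ± 1.61 and 8.59 ± 0.196 FPKM in NNMT and control cells) were higher and did not overlap between the groups. Lgals3bp, a secreted galectin ligand that was also higher, averaged 7.91 ± 0.936 FPKM in NNMT cells and 3.57 ± 0.219 FPKM in control cells. B2m, the light chain of MHC class I, went against them, at 137, 151 and 162 FPKM in NNMT cells against 245, 229 and 256 FPKM in control cells (log2 fold change -0.69, limma adjusted p = 8.33e-06).

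**Figure D5:**
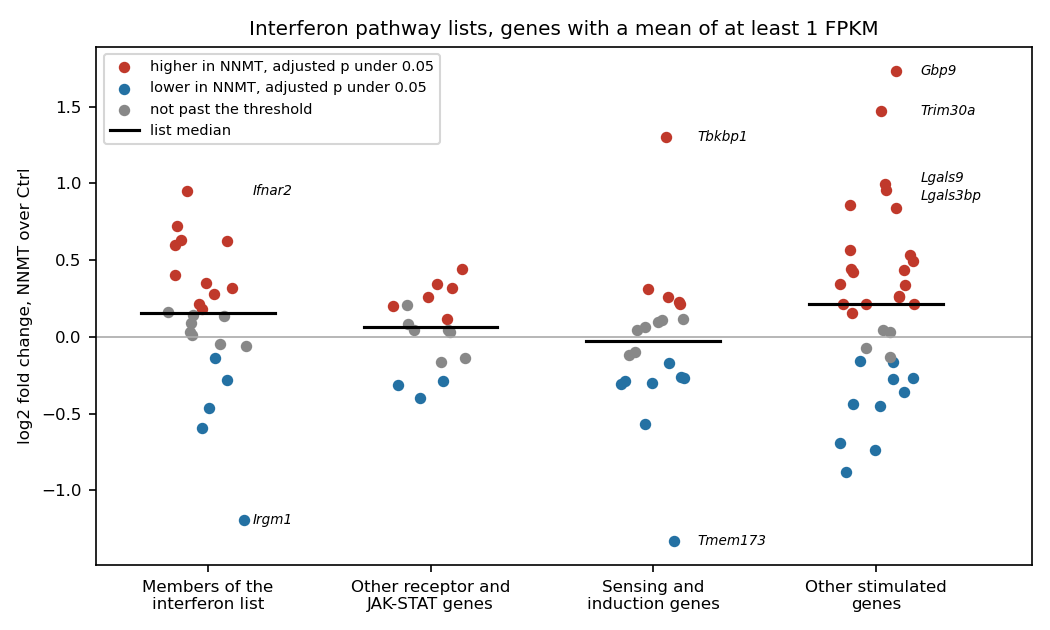
Log2 fold change (NNMT over Ctrl) of tested genes in the interferon list (24 genes), other receptor and JAK-STAT genes (16), sensing and induction genes (20) and other stimulated genes (34), spread sideways at random, with list medians as bars. The medians were 0.15, 0.07, -0.03 and 0.21, and each list held both higher (red) and lower (blue) genes.

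The immune cell markers went in both directions. Csf1r, a macrophage receptor, averaged 0.194 ± 0.0715 FPKM in NNMT cells and 0.761 ± 0.0486 FPKM in control cells (limma-voom adjusted p = 1.06e-06), and Cd68, which overlapped between the groups, averaged 1.40 ± 0.334 and 1.80 ± 0.285 FPKM in NNMT and control cells. Lyz2, a lysozyme of macrophages and granulocytes, had 1, 10 and 13 reads in NNMT libraries and 6, 2 and 0 in control libraries. Itgam, an integrin of myeloid cells, had 5 reads in NNMT libraries and 0 in control libraries, and Ptprc, the marker of all leukocytes, had 3 and 6 reads in NNMT and control libraries. The part of these markers' cells in the lower levels of Ifit1, Oasl2, Rsad2 or Irgm1 was not tested.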

How the data were processed

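The authors deposited 1 table of gene values per library with no unit. The deposited values were read as FPKM, since they are whole multiples of a step that follows the length of the longest GENCODE M21 transcript for 71.1% of genes above 0. Whole reads came out for 20527 of these 20528 genes (tolerance 0.01 of a read). Where neither that length nor the summed exon length fitted, the smallest length giving whole reads was used. For those genes recovery is no check of the unit, and their reads may be understated. CASAVA, STAR 2.5 and build mm10 are listed, with no roles, per the submitters' processing notes. Which counter was used, and how it treated strand and reads with several matches, is not given there. The NNMT column without a replicate number was used as the remaining NNMT library.

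Genes averaging 1 FPKM or more were tested with limma 3.58.1 (R 4.3.3) on log2(FPKM + 1) (trend, robust, two-sided, Benjamini-Hochberg over all genes tested, threshold 0.05). Lower genes with at least 10 reads over all libraries were tested with limma-voom on recovered reads, scaled by TMM factors. A single read on a transcript of 1 kb corresponds to 0.0250 to 0.0316 FPKM. Ratios are of group means where each group had at least 10 reads, and otherwise of summed reads over summed library totals with an exact interval, which covers counting error only. Promoter sequences are from RefSeq, and matches and shared 50-base stretches of transcripts were found by exact search. The scripts were tested on simulated data. The design named a count test as well, and the test for normalized values was used. Alternatives were other pseudocounts, filters, scalings and variance models, limma-voom, each library left out, a replicate block, and changes relative to genes within 5 Mb.

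The genes of the list, the other pathway lists and the markers were chosen with earlier results of these data known. Every gene of the list is accounted for. Those past the threshold, and lower ones with at least 10 reads and no overlap between groups, are given per library, and from each other list up to 6 genes with the smallest adjusted p are named. Gbp5, Gbp6, Gbp10, Mb21d1 and Sting1 match no annotated symbol and were left out, where Mb21d1 and Sting1 stand as Cgas and Tmem173. Values of some genes of the wider lists are not reported here.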

Additional observations from a re-analysis of the deposited data

How the results depend on the processing

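Counts of interferon genes called kept within 1.5 times those of the main test (11 higher, 5 lower) under most alternatives. With a mean of at least 5 FPKM 3 were lower, with fewer genes tested, and in limma-voom 8 were lower, with low genes included. Relative to genes within 5 Mb 7 were higher and 6 lower, with Ifngr2, Tyk2 and Trim25 newly called lower. No share of all genes called is given for this setting, so these counts cannot be set against a background. The median log2 fold change of the interferon genes turned to -0.006 relative to genes within 5 Mb, the median of their neighbours being 0.059. In that setting Ifnar1 was at -0.062 and Ifngr2 at -0.438. The median was 0.068 with a pseudocount of 10, a scale that shrinks changes. Leaving out 1 library gave 10 to 12 higher, 4 to 5 lower and medians of 0.116 to 0.175 (all genes 3383 to 3858 higher and 2968 to 3355 lower). Over all genes 3390 were higher and 3787 lower with medians of ratios scaling. Of the values for single interferon genes under alternatives, 415 stayed on their side of the threshold or within the spread of replicates, 23 lost a call, 9 gained one and 2 turned.

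Only libraries 2 and 3 carry numbers shared by both groups. Deviations from the group means correlated at 0.21 and 0.11 between libraries of the same number and at 0.21 and -0.23 between libraries of different numbers. So few values cannot show whether libraries of the same number were handled together. With the replicate block on these 4 libraries, 13 interferon genes were higher and 4 lower with a median of 0.206 (3910 and 3199 of all genes). That fit leaves 1 residual degree of freedom a gene. Its p-values, such as 3.83e-12 for Ifnar1, therefore rest on the spread pooled over genes. Over all alternatives the smallest adjusted p among the 24 tested interferon genes was 8.34e-43, for Irgm1. Without the block on the same libraries, a setting added once the data had been seen, the counts were 12 and 4 and the median also 0.206. Depth limits the 25 genes under 1 FPKM most, 6 of which had fewer than 10 reads but more than 0.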

Other observations

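Several stimulated genes outside the tested set differed strongly and were picked here by their values. Gbp4, Gbp8 and Gbp11, which lie with Gbp9 within 332 kb on chromosome 5, had 224, 66 and 146 reads in the NNMT libraries, against 4, 1 and 3 reads in the control libraries. The NNMT level was 52.5 times the control level for Gbp4 (95% counting interval 20.2 to 194), 61.8 times for Gbp8 (10.7 to 2480) and 45.6 times for Gbp11 (15.3 to 224). The annotated spans of Gbp4, Gbp8 and Gbp9 overlap, and whether these counts share reads was not tested. Gbp2 on chromosome 3, of the same family, had means of 1.26 FPKM in NNMT cells and 1.24 FPKM in control cells. Other guanylate-binding protein genes thus differed by far more than the ones in the list.

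Nlrc5, an activator of MHC class I genes, moved the other way and stood at 0.0396, 0.0570 and 0.0634 FPKM in NNMT cells, against 0.647, 0.566 and 0.541 FPKM in control cells (11-fold lower, limma-voom adjusted p = 3.84e-08). The groups did not overlap. Ddx60, a helicase that works with RIG-I, had 0 reads in the NNMT libraries and 6, 5 and 4 in the control libraries. It was at least 5.34-fold lower, with the NNMT group set to a floor of 3 counts over the group.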
